A study of Mus musculus with 48 samples.

Results

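Trimethylation of histone H3 at lysine 4 (H3K4me3) was examined at the chromosomal regions where it stood without detectable acetylation in hippocampal neurons of control mice. Overlapping H3K4me3 peaks of the 4 Control libraries on chromosomes 1 to 19 were merged into 59935 regions, of which 30258 had a peak in all 4 libraries. Members were those whose covered length (the bases of a region under a library's peaks) averaged from 500 bp to just under 4000 bp over the Control libraries and which no peak of acetylated lysine 27 (H3K27ac) or lysine 9 (H3K9ac) in any Control library overlapped by 1 bp or more. This left 403 regions, 1.33% of the 30258 and 1.90% of the 21211 within the width limits. The members were thus selected on Control H3K4me3 and Control acetylation peaks, whose values are given as a description.

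All animals were C57BL/6J mice of 4 to 6 months, either Setd1b conditional knockouts (cKO) or Control animals. Neuronal nuclei of the hippocampal CA region were fixed, sorted by flow cytometry and used for ChIP-seq, with 4 libraries per genotype for H3K4me3 and for monomethylated lysine 4 (H3K4me1), 3 Control and 4 cKO libraries for H3K27ac, and 4 Control and 3 cKO libraries for H3K9ac. RNA-seq covered 3 CA neuron libraries and 6 whole CA libraries per genotype. The labels do not give the driver of the conditional deletion, the deleted part of Setd1b, or whether libraries of a group came from separate animals, so p-values measure the spread between these libraries.

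H3K4me3 is laid down by the SET1 and MLL enzymes, of which SETD1B is a member, and marks gene starts, most of all those rich in CpG dinucleotides. At active starts it is accompanied by H3K9ac and H3K27ac, while H3K4me1 typically flanks it and also marks enhancers. H3K4me3 without acetylation is known from CpG-rich starts of silent developmental genes, where Polycomb complexes also bind. Polycomb marks were not analysed here.

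Peaks were called on 24.38 to 27.83 M tags (M for 1000000) per H3K4me3 library, 29.65 to 35.51 M for H3K4me1, 37.0 to 41.63 M for H3K27ac and 35.72 to 38.98 M for H3K9ac. A single input library served each genotype, with 28.76 M tags for Control and 31.26 M for cKO, so input and genotype cannot be told apart. RNA totals were 55.7 to 69.1 M counts in neuron libraries and 14.9 to 20.1 M in whole CA libraries. In neuron RNA of Control libraries the 8 neuron markers summed to 6401 to 6503 CPM (counts scaled to a library total of 1000000). The 8 oligodendrocyte lineage markers summed to 116 to 135 CPM, the 6 astrocyte markers to 49.4 to 62.4 CPM and the 6 microglial markers to 11.2 to 11.7 CPM. In whole CA Control libraries the neuron markers summed to 13423 to 14530 CPM. The oligodendrocyte lineage, astrocyte and microglial markers there summed to 3337 to 4814, 2311 to 2608 and 268 to 326 CPM. Setd1b was at 47.8 to 65.5 CPM in Control and 60.2 to 71.6 CPM in cKO neuron RNA (log2 change 0.25, adjusted p = 0.36, edgeR quasi-likelihood test). In whole CA it was at 29.3 to 54.6 CPM in Control and 53.2 to 68.0 CPM in cKO (log2 change 0.59, adjusted p = 0.00415, edgeR). Whole-gene counts also hold reads from outside a deleted part, and they were not lower in cKO, so Control and cKO below stand for libraries labelled as such, and every direction rests on those labels.

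Gene starts within the members held more CpG than start sites in general. RefSeq promoter sequences (GRCm38.p6, from 250 bases before to 50 after a start) placed 72 start sites of 71 genes inside a member. Their median was 18.5 CpG per 300 bases, with a median observed over expected CpG of 0.706, and 65.3% of them reached a ratio of 0.6. Start sites in acetylated regions within the limits but under 1000 bp, a width range that also held most members, had a median of 12.5 CpG and reached that ratio in 41.0% of 1082 cases. Those in all acetylated regions within the limits had a median of 21 CpG and a share of 73.4%, above the members. Over all 31396 start sites the median was 7 CpG and the share 36.4%. The table of promoters is not complete.

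Sequences are given for 5 of these promoters, written 5′ to 3′ on the strand of the gene, with every CG in capitals (the letters CG read the same on both strands). They do not span the range, which ran from 1 CpG at Gm29729 to 55 at Gm11999. Hmga2, an architectural chromatin protein of embryonic and stem cells, starts in the longest member and has 12 CpG (chr10:120476420-120476719, minus strand). Sp9, a zinc finger factor of forebrain interneuron development, is another of the longest members and has 25 CpG (chr2:73271676-73271975, plus strand). Foxf2, a forkhead factor of brain pericytes, is the gene whose RNA differed between genotypes and has 27 CpG (chr13:31625566-31625865, plus strand). Sst, which encodes the neuropeptide somatostatin, is the marker of inhibitory neurons that starts in a member and has 13 CpG (chr16:23890795-23891094, minus strand). Casp1, an inflammatory protease, shows a start poor in CpG with 3 (chr9:5298267-5298566, plus strand) and was picked after its values were seen.
Hmga2: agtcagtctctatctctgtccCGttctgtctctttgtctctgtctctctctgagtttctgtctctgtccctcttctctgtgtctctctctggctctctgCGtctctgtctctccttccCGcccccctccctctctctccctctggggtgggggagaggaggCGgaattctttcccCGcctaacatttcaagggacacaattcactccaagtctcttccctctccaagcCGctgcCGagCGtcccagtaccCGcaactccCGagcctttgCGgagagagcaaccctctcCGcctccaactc
Sp9: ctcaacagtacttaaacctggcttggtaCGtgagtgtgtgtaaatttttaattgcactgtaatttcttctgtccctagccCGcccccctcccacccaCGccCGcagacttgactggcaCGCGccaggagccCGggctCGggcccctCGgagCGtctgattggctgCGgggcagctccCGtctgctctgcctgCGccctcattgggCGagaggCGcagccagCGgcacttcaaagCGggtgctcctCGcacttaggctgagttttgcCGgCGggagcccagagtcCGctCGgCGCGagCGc
Foxf2: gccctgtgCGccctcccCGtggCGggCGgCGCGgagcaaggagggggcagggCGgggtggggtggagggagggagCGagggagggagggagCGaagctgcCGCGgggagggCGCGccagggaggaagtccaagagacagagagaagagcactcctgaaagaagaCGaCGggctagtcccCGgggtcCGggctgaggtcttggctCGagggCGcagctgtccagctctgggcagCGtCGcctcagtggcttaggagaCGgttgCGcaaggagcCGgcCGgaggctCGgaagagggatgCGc
Sst: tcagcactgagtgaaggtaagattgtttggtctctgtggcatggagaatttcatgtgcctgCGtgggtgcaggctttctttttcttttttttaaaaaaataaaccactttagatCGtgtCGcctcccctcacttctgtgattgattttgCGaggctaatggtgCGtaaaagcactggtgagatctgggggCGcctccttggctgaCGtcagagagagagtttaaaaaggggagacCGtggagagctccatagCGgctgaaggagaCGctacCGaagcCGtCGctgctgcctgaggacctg
Casp1: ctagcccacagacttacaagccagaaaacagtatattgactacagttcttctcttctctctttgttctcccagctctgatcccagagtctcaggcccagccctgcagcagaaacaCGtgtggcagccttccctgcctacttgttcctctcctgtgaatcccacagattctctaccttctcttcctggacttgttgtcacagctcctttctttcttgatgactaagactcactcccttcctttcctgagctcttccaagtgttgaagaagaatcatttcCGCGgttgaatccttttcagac

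Most members were narrow. Their mean covered length in Control ran from 500.25 to 2141.5 bp with a median of 645 bp, and 352 of 403 (87.3%) were under 1000 bp, against 35.7% of the 20808 acetylated regions within the same limits. The comparison set used below is therefore the 7420 acetylated regions under 1000 bp, called narrow. Another 1164 regions without acetylation fell under 500 bp and none reached 4000 bp. The lengths just under the limit were 499.75 bp in Hdnr, 499.75 bp at chr3:87213900-87214538 and 498.5 bp in Epcam, and those just over it were 500.25 bp at chr12:90564645-90565295, 501.25 bp at chr12:92737826-92738522 and 501.5 bp in Gm5844. Control peaks of the members were weaker, with a median fold over input of 6.33 to 6.64 per library by the authors' values, against 8.09 to 8.38 in the narrow acetylated regions. The nearest Control acetylation peak lay a median of 19603 bp away, within 1 kb for 49 members (12.2%) and beyond 10 kb for 253 (62.8%).

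Members lay at 68 gene starts (16.9%, against 12.9% of the narrow acetylated regions) and over either end of a gene's span without such a start at 38 (9.43% against 6.67%), called a boundary below. A further 147 lay inside a gene (36.5% against 47.5%) and 119 between genes (29.5% against 32.3%). Genes for tRNA or rRNA held 15 members (3.72% against 0.337%), and clustered protocadherin genes, which encode neuronal adhesion proteins, held 16 (3.97% against 0.310%). Seen from the other side, 26.7% of the 60 regions over clustered protocadherin genes and 7.25% of the 207 over tRNA or rRNA genes were members, but 0.621% of the 10955 at gene starts. These shares describe the regions chosen and carry no test.

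**Figure D1:**
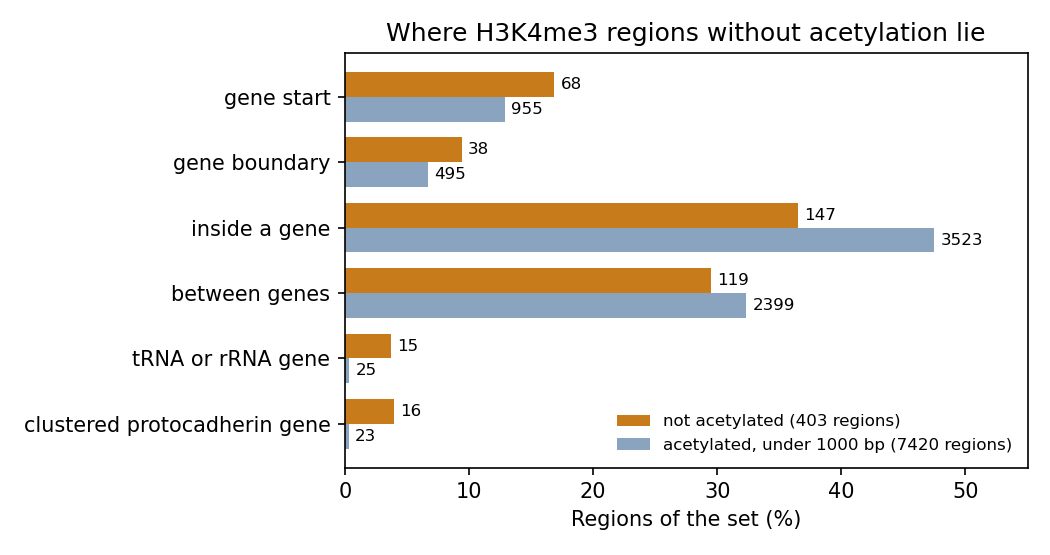
Share of regions (x axis, %) in each annotation class (y axis) for the 403 members and the 7420 acetylated regions under 1000 bp, with the number of regions beside each bar. Protocadherin and tRNA or rRNA genes together hold 31 members (3.97% and 3.72%) against 0.310% and 0.337% of the acetylated regions, while members inside genes are fewer in proportion (36.5% against 47.5%).

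Of the members, 96 lay in 7 clusters, each a run of at least 5 members spaced by no more than 1 Mb. The largest held 30 members over chr12:17992192-23968879, an interval of predicted genes around Gm4983, together with 21 acetylated regions. On chromosome 4 the interval 145463410 to 147739931 held 23 members and 3 acetylated regions across zinc finger genes including Zfp600, Zfp978, Zfp979, Zfp982, Zfp992, Zfp993 and Rex2. Members of these clusters were far from Control acetylation, with median distances of 179338 bp on chromosome 12 and 175054 bp on chromosome 4. The chromosome 11 cluster held 8 members over Sfi1, a centrosomal protein gene, and the pseudogene Pisd-ps1 (3127829 to 3193934), with 0 acetylated regions between them. These genes, and those for protocadherins, 5S rRNA and tRNA, have related copies, whose likeness in sequence was not measured. Reads may be split between copies where these are near-identical. How the authors treated such reads is not given in the sources used here.

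The protocadherin cluster on chromosome 18 (36930101 to 37726528) held 17 members beside 25 acetylated regions. The 3 gene families of this locus differed in the split. In the beta family 12 of 20 regions were members and 4 were acetylated, while 1 of 16 in the alpha family and 3 of 24 in the gamma family were members. The 12 beta members had median H3K4me3 lengths of 755.5 to 826.5 bp in Control libraries and 643.5 to 774.5 bp in cKO libraries, and none had an H3K4me1 peak in any of the 8 libraries. H3K4me1 was present at 1 of the 4 acetylated beta regions, 5 of the 13 acetylated alpha regions and 8 of the 19 acetylated gamma regions.

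H3K4me1 was common in the remaining clusters, those of 5S rRNA, tRNA and forkhead genes. All 7 members among the 5S rRNA genes of chromosome 8 (123540546 to 123605948), where 34 further regions were acetylated, had it in all 8 libraries. The nearest acetylation peak was a median of 579 bp away there. A tRNA gene cluster on chromosome 13 (21907124 to 21997904) held 6 members. Of these, 5 had H3K4me1 in at least 1 Control library, 3 in all 4 Control libraries and 6 in at least 1 cKO library. The chr13:30749014-31809158 interval held 5 members over the immune factor gene Irf4 and the forkhead genes Foxf2 and Foxc1, all with H3K4me1 in all 4 Control libraries.

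**Figure D2:**
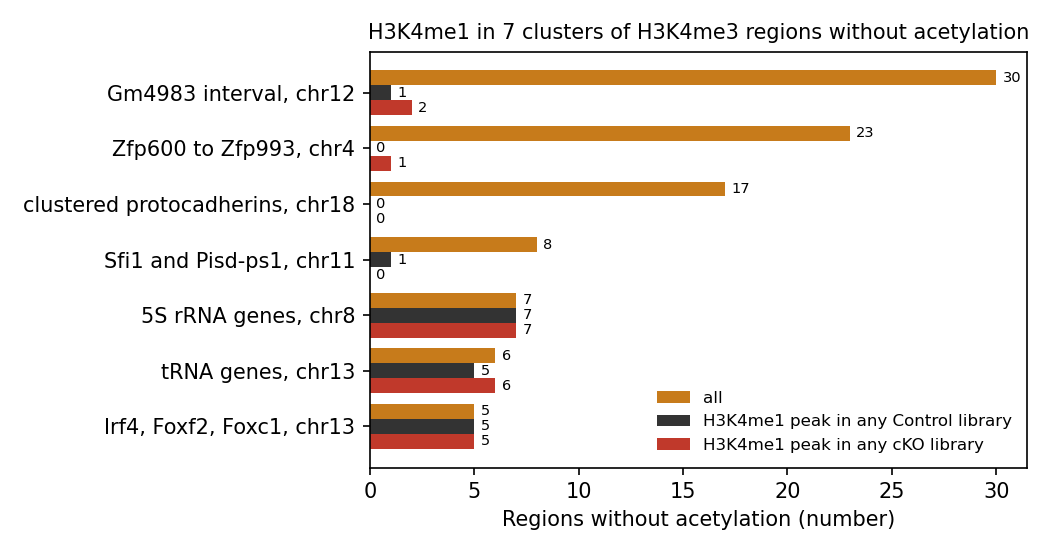
Number of members (x axis) in each of the 7 clusters (y axis), with the number that had an H3K4me1 peak in any Control library and in any cKO library. The clusters on chromosomes 12, 4, 18 and 11 hold 30, 23, 17 and 8 members and have H3K4me1 at no more than 2, while the 5S rRNA, tRNA and forkhead clusters have it at nearly every member.

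H3K4me1, which the choice of regions did not use, was found at 57.1 to 60.0% of members in Control libraries and 54.6 to 60.0% in cKO libraries. The narrow acetylated regions had it at 95.5 to 97.1% and 95.9 to 97.4%. A peak in none of the 8 libraries was seen at 133 members (33%) but 86 narrow acetylated regions (1.16%), and 188 members (46.7%) had a peak in all 8. The share varied with location. Within the 7 clusters 15.6 to 18.8% of the 96 members had H3K4me1 in a Control library, and outside them 69.4 to 73.0% of 307. At gene starts the Control share was 77.9 to 79.4%, at tRNA or rRNA genes 80.0 to 93.3%, inside genes 55.8 to 61.9%, between genes 52.9 to 56.3% and at gene boundaries 39.5 to 50%. Of the 133 regions without H3K4me1 in any library, 74 lay in the clusters and 59 outside them.

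**Figure D3:**
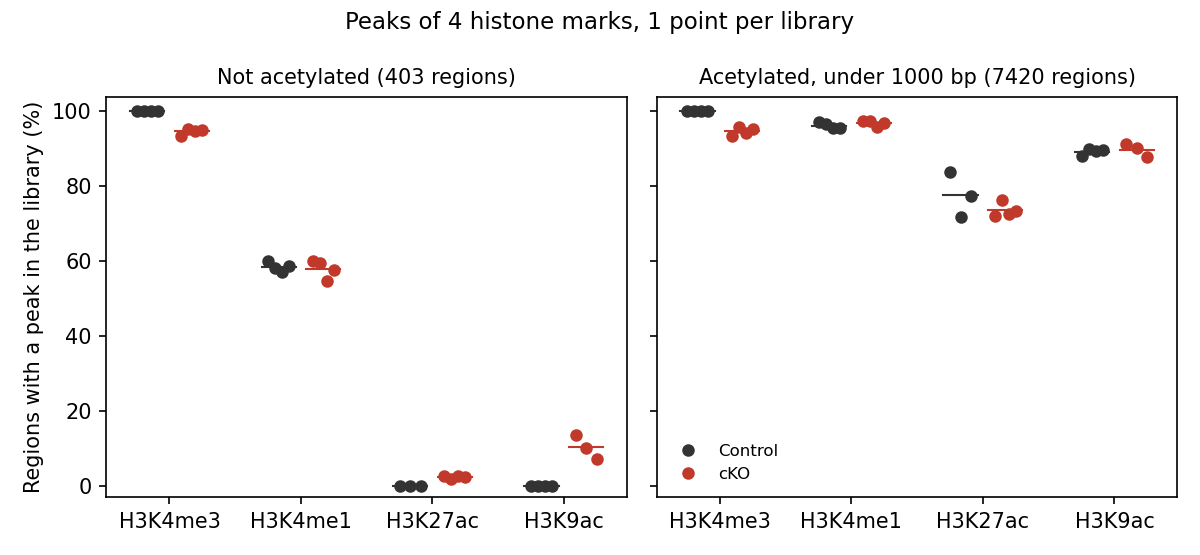
Share of regions with a peak (y axis, %) for 4 histone marks (x axis), 1 point per library and a line at the mean of the group, for members (left) and acetylated regions under 1000 bp (right). H3K4me1 sits at 54.6 to 60.0% in all 8 libraries on the left and above 95% on the right, and the 100% for Control H3K4me3 in both panels and the 0% for Control acetylation on the left were set by the choice of regions.

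H3K4me1 was compared between genotypes by limma on log2 of covered length plus 100 bp, over the regions with a peak in at least 3 of 8 libraries. Of 252 members tested 5 were called at an adjusted p under 0.05, 3 shorter and 2 longer in cKO, against 1.15% of the 29116 regions tested (0.285% shorter and 0.866% longer). The median change over the 252 members was 0.01 on the log2 scale. Groups did not overlap at 7 members shorter and 8 longer in cKO, beside 1.44% and 4.49% of the regions tested. With a peak required in all 8 libraries 0 of 188 members were called. Lengths are capped at the length of the region, and a region covered to its ends in several libraries varies little.

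An intragenic region of Enpp5, which encodes a membrane-bound phosphodiesterase family protein (chr17:44081707-44083611), was covered by H3K4me1 over 1905 bp in each of the 4 Control libraries and had no peak in any cKO library. A region of Ppp1r9a, which encodes the actin-binding synaptic protein neurabin (chr6:4907064-4907881), was covered over 818 bp in each Control library and in no cKO library. Both were called, but lengths without any spread inside a group give no usable standard error. In Car2, which encodes carbonic anhydrase 2 (chr3:14889479-14890778), H3K4me1 covered 551, 898, 895 and 1214 bp in Control libraries 1 to 4 and 0 bp in each cKO library. These 3 regions entered the test only through their Control libraries, so their lengths are given without a p. The groups did not overlap there, and their H3K4me3 was also missing or nearly so in cKO. Within 5 kb of the Enpp5 region, H3K4me1 covered 5695 to 8923 bp in Control and 1365 to 2900 bp in cKO libraries, so the surrounding mark was shorter but present.

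In the other direction, the intergenic region chr2:47531296-47532120 had no H3K4me1 peak in Control libraries and 333, 521, 410 and 508 bp in cKO libraries 1 to 4. It entered the test only through its cKO libraries and is likewise given without a p. Its H3K4me3 covered 605 to 823 bp in Control and 806 to 825 bp in cKO. The call at chr3:38396758-38397384 rested on 534, 424, 462 and 464 bp in Control against the whole 627 bp in each cKO library (log2 change 0.35). The cKO lengths were capped at the region's ends and had no spread, so no p is given here either. This call was lost when any of 7 single libraries was left out. When the replicate number was fitted as a block, the calls at Car2, chr2:47531296-47532120 and chr3:38396758-38397384 were lost. Those at Enpp5 and Ppp1r9a remained, but with no spread inside either group this outcome was fixed in advance. Replicates 2 to 4, which shared a sequencing lane according to the file names, gave 7 calls.

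Among 151 developmental transcription factor genes, 9 start in a member (5.96%), or 14.1% of the 64 that start in any region. Over all 25748 genes of the promoter table these shares were 0.276% and 0.572%. The 9 were the homeobox genes Lhx4, Nkx3-2, Gsx2, Msx2 and Six3, the forkhead genes Foxl2, Foxf2 and Foxc1, and the SRY-related gene Sox21, which pattern the embryo and its organs. None of 45 genes for Wnt proteins and other morphogens starts in a member and 33 start in an acetylated region. The same held for 11 genes of Polycomb subunits, all of which start in acetylated regions. Of the cell type markers in the table, Sst alone starts in a member. The lists are counted here without a test.

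All 9 factor genes had H3K4me1 in all 8 libraries, 8 of 9 had H3K4me3 in all 4 cKO libraries, and 2 had an acetylation peak in a cKO library. Lhx4, a LIM homeobox factor of motor neuron and pituitary development, had the longest H3K4me3 of the 9, with 1098, 1243, 1019 and 1258 bp in Control libraries 1 to 4 and 752, 1103, 538 and 1022 bp in cKO. The groups overlapped. Sox21 covered 705, 1037, 953 and 1114 bp in Control and 594, 1225, 1062 and 915 bp in cKO, and again overlapped. Foxf2 covered 668, 532, 548 and 576 bp in Control against 405, 444, 422 and 615 bp in cKO, with 1 cKO library inside the Control range. Nkx3-2, a factor of skeletal development, was the exception among the 9, with 672, 695, 374 and 460 bp in Control, 325 and 275 bp in cKO libraries 1 and 2 and no peak in libraries 3 and 4.

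Sst had H3K4me3 lengths of 594, 550, 595 and 557 bp in Control and 609, 536, 595 and 638 bp in cKO, with H3K4me1 in 3 of 4 Control and 4 of 4 cKO libraries. Members also fell in or at the boundary of Pax6, Six2, Twist1, Zic1, Zic4, Zic5, Olig1 and Otx1 and of the morphogen genes Gdf6 and Shh, away from the start sites in the table. The region at the boundary of Olig1, an oligodendrocyte lineage factor, averaged 1510.25 bp in Control and that inside Shh 1439.5 bp.

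The longest members are given with their H3K4me3 in every library. Hmga2 (chr10:120474881-120477699) was covered over 2346, 1908, 1985 and 2327 bp in Control libraries 1 to 4 and 1479, 2049, 1478 and 2226 bp in cKO, and H3K4me1 covered at least 2710 of its 2819 bp in all 8 libraries. A region inside Dlx1as, an antisense RNA beside an interneuron homeobox gene (chr2:71535852-71537873), had 1775, 1832, 1580 and 2022 bp in Control and 1353, 2017, 1646 and 1902 bp in cKO, with no H3K4me1. Sp9 (chr2:73271851-73273894) had 1857, 1874, 1822 and 1576 bp in Control and 1459, 1713, 1915 and 1798 bp in cKO. In all 3 the genotypes overlapped. The region at Gm4983 (chr12:17992192-17994137) had 1688, 1714, 1794 and 1588 bp in Control and 1446, 1612, 1578 and 1556 bp in cKO, with 1 cKO library above the lowest Control library.

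The region in the long noncoding RNA gene A230006K03Rik (chr7:61308942-61310901) stood apart from the other long members. Its H3K4me3 covered 1774, 1828, 1596 and 1958 bp in Control but 316, 754, 181 and 588 bp in cKO, without overlap, and no library had H3K4me1 there. The fold over input by the authors' values fell from a range of 10.4 to 12.6 in Control to 2.68 to 5.57 in cKO. A like pattern was seen at the boundary of Meg3, an imprinted noncoding RNA gene (chr12:109543341-109545012), with 1414, 1513, 1432 and 1353 bp in Control and 0, 412, 427 and 674 bp in cKO. At the imprinted Gnas locus (chr2:174294234-174296163) the order was the opposite, with 919, 1259, 1268 and 1598 bp in Control and 1905, 1925, 1855 and 1890 bp in cKO. Meg3 and Gnas were picked after their values were seen.

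As a description of the contrast that the choice of regions touched, 30 of 403 members were called for H3K4me3 length, 27 shorter and 3 longer in cKO, beside 18.8% of all 30258 regions (18.5% shorter and 0.321% longer) and 7.14% of the narrow acetylated regions (6.90% shorter). Of the 27, 23 lay inside a gene, beside 36.5% of all members. The median change was −0.06 on the log2 scale in members and −0.07 over all regions. Groups without overlap numbered 32 shorter and 5 longer, beside 23.3% and 1.01% of all regions. Replicates 1 to 3, which shared a lane in the file names, gave 25 calls. Nothing is read from these counts, since a peak in every Control library was required.

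A peak in all 4 cKO libraries was found at 366 members, and 12 had none (2.98%, beside 2.43% of all regions). The 12 had Control lengths of 596 to 1337.25 bp, and 11 lay inside a gene, beside 36.5% of all members. The longest lay in Lrrtm4, which encodes a synaptic organizer protein (chr6:80023485-80024992), with 1167, 1459, 1384 and 1339 bp in Control. The Enpp5 region had 1222, 1251, 1285 and 980 bp. Regions in Trps1, a GATA-type repressor (chr15:50884179-50885330), and in Prox1, the homeobox factor of dentate granule neurons (chr1:190165033-190166161), had 835, 897, 1005 and 711 bp and 538, 862, 834 and 975 bp. Others of the 12 were in Trim44, Arsj, Kif5c, Cblb, Trhde and Ppp1r9a and at the boundary of Gm30687. H3K4me1 was present in all 4 Control libraries at 5 of the 12, beside 50.9% of all members. It was present in no cKO library at 7 of the 12, beside 36.7% of all members. In neuron RNA the 3 dentate granule markers, which include Prox1, summed to 148 to 174 CPM in Control and 112 to 146 CPM in cKO, with 2 of 3 called lower by edgeR, and none is at 0. The part of such cells in these 12 regions was not tested.

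**Figure D4:**
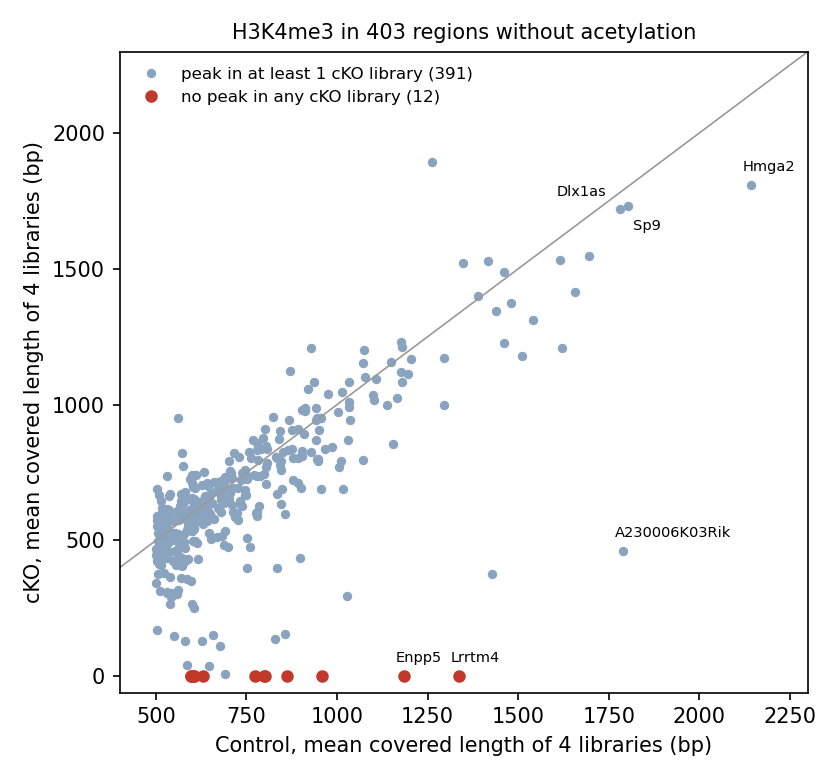
Mean H3K4me3 covered length (bp) of each member over the 4 Control libraries (x axis) and the 4 cKO libraries (y axis), with a line of equal length. Red points on the x axis are the 12 members without a cKO peak, Lrrtm4 and Enpp5 being the longest, and A230006K03Rik lies far below the line. The left edge at 500 bp is the width limit of the rule.

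To measure H3K4me3 in libraries that had not chosen the regions, each Control library was left out in turn and the rule applied to the other 3, which gave 401 to 430 regions. The left-out Control library had a peak at 98.1 to 99.8% of them and the cKO libraries at 92.3 to 94.9%. Median lengths of the left-out library were 588.5, 626, 644 and 640.5 bp, and those of the cKO libraries ran from 557 to 666.5 bp. The mean log2 difference in median length, cKO minus left-out Control, was −0.01 (SD 0.06 over the 4 left-out libraries, from −0.05 to 0.07). The same cKO libraries enter each difference, so this SD does not measure the spread between cKO libraries. In narrow acetylated regions rebuilt the same way the difference ran from −0.04 to 0.07. Without cKO library 1 the mean for the members became 0.04.

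Acetylation peaks were scarce in cKO libraries too. H3K27ac overlapped 1.74 to 2.48% of the members in the 4 cKO libraries and H3K9ac 7.20 to 13.6% in the 3 cKO libraries, against 0 in Control by the choice of regions. In the narrow acetylated regions the cKO shares were 72.2 to 76.4% and 87.8 to 91.3%. No cKO acetylation peak was found at 304 members (75.4%), while 24 had H3K27ac, 86 had H3K9ac and 11 had both in at least 1 library. The region inside Six2, a kidney progenitor homeobox gene (chr17:85664540-85665250), and that inside Rora, a nuclear receptor gene (chr9:68927398-68927999), had acetylation peaks in 5 of 7 cKO libraries. Those of Six2 spanned 259 and 145 bp for H3K27ac in 2 libraries and 326, 261 and 228 bp for H3K9ac in all 3. The regions chr7:37213021-37213835, chr13:19701202-19701880 and chr2:68806024-68806759, between genes, had peaks in 4 of 7.

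Left-out Control libraries had H3K9ac shares within the cKO range. With H3K9ac Control libraries 1 to 4 left out in turn, that library had a peak at 15.3%, 11.6%, 10.6% and 10.6% of 451 to 476 rebuilt regions, and the cKO libraries at 9.09 to 17.3%. The mean difference, cKO minus left-out Control, was 0.936 percentage points (SD 2.34 over the 4). For H3K27ac the left-out share was 10.04% with Control 1, 0.983% with Control 3 and 2.89% with Control 4, and the cKO libraries had 2.41 to 4.69%. The mean difference was −1.43 points (SD 4.18 over the 3), made of −6.14 for Control 1, 1.84 for Control 3 and 0 for Control 4. These means did not exceed the SD over the left-out Control libraries, but that for H3K9ac depended on the setting. It was −0.859 points without cKO library 1, −0.304 points with same-numbered libraries compared as a block, and 5.57 points with peaks of a −log10 q of at least 5 only.

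**Figure D5:**
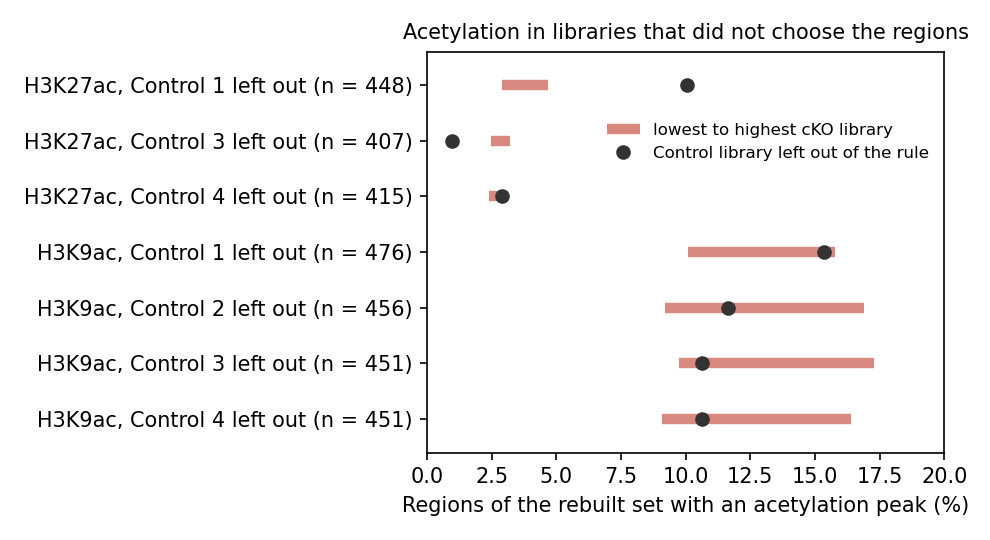
Share of rebuilt regions with an acetylation peak (x axis, %) in the Control library left out of the rule (point) and over the cKO libraries (bar from lowest to highest), 1 row per left-out library with the number of rebuilt regions. The H3K9ac points, at 10.6 to 15.3%, lie within the cKO bars, and the H3K27ac points lie above the bar for Control 1, below it for Control 3 and inside it for Control 4.

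The same rule applied to the cKO libraries gave 576 of 31378 regions, of which 229 (39.8%) overlapped a member. Conversely 231 of the 403 members (57.3%) overlapped a cKO-rule region. Control libraries had an acetylation peak at 223 of the 576. A Control H3K4me3 peak was missing at 2 of them, inside Gm38510 (chr1:85287156-85288285) and at chr12:68605199-68605801.

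RNA was compared for genes that start in a member. In bulk samples fewer cells of a type and less RNA per cell cannot be told apart. Of the 71 genes 62 were matched to a count in neuron RNA and 61 in RNA of whole CA. The filter on low counts was passed by 32 (51.6%) in neurons, against 75.9% of genes starting in narrow acetylated regions, 94.2% of those in all acetylated regions within the width limits and 66.8% of all genes in the table. In whole CA 25 passed (41.0%, against 66.6%, 89.7% and 60.3%). These shares carry no test.

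In neurons 0 of the 32 were called by edgeR's quasi-likelihood test, beside 2.75% of 19622 genes (2% lower and 0.744% higher in cKO). Of the 32, 3 had an unadjusted p under 0.05 by edgeR. DESeq2 called 0 as well, but it gave no adjusted p for 13 of the 32, which therefore could not be called. Sst, the most abundant of the named genes, had 78.3 to 83.6 CPM in Control and 69.6 to 75.6 CPM in cKO (log2 change −0.15, SE 0.08, adjusted p = 0.37, edgeR). Sp9 had 4.02 to 4.46 CPM in Control and 3.66 to 4.90 CPM in cKO. Of the 9 factor genes 4 passed the filter, and none exceeded 0.315 CPM in any neuron library. Nkx3-2 had no count in any of the 18 RNA libraries, which allows up to 0.0538 CPM in a neuron library and 0.202 CPM in a whole CA library (3 counts of the smallest total, counting error only).

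Hmga2, whose start lies in the longest member, had 0.314, 0.260 and 0.218 CPM in Control and 0.165, 0.0624 and 0.0713 CPM in cKO neuron libraries 1 to 3. The groups did not overlap, but the difference missed the threshold (log2 change −1.36, SE 0.42, adjusted p = 0.14, edgeR). Casp1, picked after its values were seen, had 0.910 to 1.72 CPM in Control and 0.660 to 1.01 CPM in cKO (log2 change −0.88, SE 0.28, adjusted p = 0.158, edgeR). Without Control replicate 1 it was called.

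In whole CA 1 of 25 genes was called, beside 4.17% of 15362 genes (2.79% lower and 1.38% higher in cKO). Foxf2 had 4.25, 3.91, 3.80, 4.23, 3.26 and 4.99 CPM in Control libraries 1 to 6 and 2.53, 2.32, 2.82, 2.78, 2.90 and 2.89 CPM in cKO (log2 change −0.58, SE 0.13, adjusted p = 0.0153, edgeR). All 6 cKO libraries lay below the lowest Control library. In replicates 1 to 3 the change was −0.63 (adjusted p = 0.208) and in replicates 4 to 6 it was −0.53 (adjusted p = 0.339), by edgeR within the lanes of the file names. In neuron RNA Foxf2 was at 0.0165 to 0.0650 CPM in Control and 0.0178 to 0.0450 CPM in cKO and failed the filter. The 7 endothelial and mural markers summed to 380 to 427 CPM in whole CA Control and 354 to 377 CPM in cKO, with 1 of 7 called lower and none at 0, and their part in the Foxf2 result was not tested. Nes, which encodes the progenitor filament protein nestin and was picked after its values were seen, had 11.9 to 17.1 CPM in Control and 10.4 to 13.5 CPM in cKO (log2 change −0.34, SE 0.10, adjusted p = 0.0685, edgeR). It was called with the replicate number as a block (adjusted p = 0.0438, edgeR) and by DESeq2 (adjusted p = 0.0316). A joint fit of both materials, with its own filter on low counts, tested 29 member genes, Foxf2 among them. The change was called different between the materials for 0 of them (edgeR interaction, 1 at an unadjusted p under 0.05). This does not show that the changes were alike.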

How the data were processed

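ChIP files as deposited by the authors were peak lists, 1 per library, called with MACS 2.1.1.20160309 (H3K4me3) or 2.1.0.20140616 (other marks) at a q cutoff of 0.1, broad for H3K4me1, per the file headers. Build mm10 (GRCm38), MACS2 and SAMtools are named in the submitters' processing notes. The fold enrichment (a ratio to input), −log10 q-value and pileup signal of a peak are the authors' deposited values. RNA files hold whole-number counts per Ensembl gene as deposited; the aligner and counter are not given in the sources used here.

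Regions, covered lengths and overlaps were computed with pandas 2.3.3. Lengths were compared with limma 3.58.1 on log2(bp + 100), and counts with edgeR 4.0.16 (TMM, filterByExpr, quasi-likelihood), each over the whole table with Benjamini-Hochberg adjustment and calls under 0.05; DESeq2 1.42.0 was an alternative. Both scripts were tested on simulated data. For limma these were modelled on regions with an H3K4me1 peak in all 8 libraries. None lacked a peak or had lengths without spread, so the test does not bear on calls at such regions. Peak lists hold no counts per region, so a mark below the calling threshold is missed. Starts and spans came from RefSeq tables of GRCm38.p6.

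The members, lists and tests were chosen with earlier results of these data known. Regions named were the 5 longest, the 3 on either side of the width limit, the 5 longest without a cKO H3K4me3 peak, up to 3 shortened and 3 lengthened for H3K4me1, and the 5 with acetylation in most cKO libraries; genes named were those starting there, list members starting in a member and called genes. Others are said to be picked after their values were seen, and some items are not reported here. Correlations of same-numbered libraries were not all above 0.1 in any material, so the numbers were not taken as pairs and the fits reported as results carry no block. Alternatives covered peak thresholds, overlap and width rules, offsets, filters, scaling, other tools, lanes, replicate blocks and leaving out each library.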

Additional observations from a re-analysis of the deposited data

Results flagged for a closer look

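In groups of 4 to 10 libraries, 4 of 39 groups held a library far from the others of its group. Chance alone sets 1 in 20 apart where values vary freely. In 3 of the 4 the other libraries were tied at 0 bp or at the full region length. There any differing library is flagged and that rate does not apply. The median H3K4me1 covered length of members was 366 bp in cKO library 3 and 523 to 551 bp in the other cKO libraries. At Hmga2, H3K4me1 covered 2710 bp in cKO library 3 and the full 2819 bp in the other 3. At Car2, H3K4me3 covered 34 bp in cKO library 3 and 0 bp in the other 3. At chr2:47531296-47532120, H3K4me3 covered 806 bp in cKO library 2 and the full 825 bp in the other 3.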

How the results depend on the processing

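The number of members depended most on what counted as acetylated. It was 1449 with acetylation peaks of a −log10 q of at least 5 only, 1907 when a peak had to cover 50% of the region and 1567 without width limits, each holding all 403, and 401 to 476 with a Control library left out. The held-out H3K4me3 difference was 0.0369 without cKO replicate 1, and −0.0443 to 0.0369 over the cKO libraries left out. The held-out H3K9ac difference was 5.57 points at a −log10 q of at least 5 and −0.859 to 2.67 points with a cKO library left out. H3K4me1 calls among members fell from 5 to 0 with a peak required in all 8 libraries (188 members tested) and to 0 at a −log10 q of at least 5 (14 tested), and numbered 4 to 6 with a library left out. H3K4me3 calls stayed between 24 and 34 over all alternatives run. Neuron RNA calls were 0 to 1 with a library left out, 1 without Control replicate 1. Whole CA calls were 2 with DESeq2, 2 at an adjusted p under 0.1, 0 in replicates 1 to 3, 0 in replicates 4 to 6 and 1 to 2 with a library left out, Nes being the further gene in each case of 2 calls. The causes were not tested.

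Fitted with a replicate block, H3K4me1 calls were 2, H3K4me3 calls 26, neuron RNA calls 0 and whole CA calls 2. The 2 H3K4me1 calls were Enpp5 and Ppp1r9a, whose lengths had no spread inside a group. The block gave held-out differences of −0.0135 (log2) for H3K4me3, −1.36 points for H3K27ac and −0.304 points for H3K9ac. Same-numbered libraries correlated at −0.00894 to 0.079 for H3K4me1, −0.0511 to 0.0555 for H3K4me3, −0.0569 to 0.286 for neuron RNA and −0.0635 to 0.203 for whole CA, and 1 of 4, 2 of 4, 1 of 3 and 2 of 6 cKO libraries correlated best with their own number.

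Peak lists give length and not height, a single input per genotype enters every call, and depth limits the low RNA levels.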
